A study of Arabidopsis thaliana with 6 samples.

Results

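Transcripts of 3 protease genes, UND, SBT4.13 and scpl29, were followed in *Arabidopsis thaliana* anthers, in a myb80 mutant and in wild type. The genes were picked by name, with their mutant and wild-type values already known, and each was read by 1 probe set, the group of short probes that reports a transcript on an Affymetrix array. They are 3 of 13286 genes that had a probe set of their own, and their probe sets are 3 of the 22746 that remained after the array's control probe sets were left out. UND (AT4G12920, UNDEAD) was read by probe set 254792_at, SBT4.13 (AT5G59120) by 247758_at and scpl29 (AT4G30810) by 253600_at. All 3 are annotated as protein-coding genes. Genome coordinates are not given here. Because the values of this comparison chose the genes, their differences are described below and no p-value is given for them.

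The mutant group carried the myb80 mutation and the wild-type group did not. The labels give neither the allele nor the accession of the plants, and no treatment other than genotype. There were 3 arrays per group, for the mutant replicates named 1, 4 and 5-2 and for those named 2, 5 and 6 in wild type. The labels call the replicates biological without saying whether the plants were grown together, so p-values measure only the spread between these samples. Total RNA came from dissected anthers of stages 5 to 8, about 1000 for each replicate. These stages run from pollen mother cells to released microspores.

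MYB80 is a transcription factor that acts in the tapetum, the innermost layer of the anther wall. The tapetum secretes enzymes and wall precursors to the developing microspores and then dies by a programmed course of self-digestion. Proteases act in that course as executioners, as enzymes of protein turnover and, in some cases, as brakes. UND encodes an aspartic protease of the pepsin type, reported as a direct target of MYB80, and silencing it was reported to bring on premature death of the tapetum. That report may rest on these same arrays. SBT4.13 encodes a subtilase, a serine protease of the subtilisin type, and most plant subtilases enter the secretory pathway. scpl29 encodes a serine carboxypeptidase-like protein, of a family in which some members trim amino acids from the carboxyl end of proteins and others have become acyltransferases of phenolic compounds. Where the 3 proteins are located was not measured.

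Values are given as scaled intensity, the deposited linear intensity after each array was multiplied by 1 factor so that all arrays had the same median. Values under 16 were raised to that floor before logarithms were taken. Across arrays, 19% to 22% of probe sets lay at the floor. Intensities of different probe sets are not compared with each other, since probes differ in how strongly they bind.

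UND was lower on every mutant array than on any wild-type array. Its scaled intensity was 180.6, 104.1 and 29.5 on mutant replicates 1, 4 and 5-2. On wild-type replicates 2, 5 and 6 it was 406, 848 and 1127. The groups did not overlap, although both were spread widely, and the lowest wild-type array stood 2.25-fold above the highest mutant array. The geometric mean in the mutant was 11.3% of that in wild type, an 8.88-fold difference (log2 difference -3.15 ± 0.89, SE, n = 3 per group). Mutant replicate 5-2 was the lowest of all 6 arrays, and without it the difference was 5.32-fold.

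SBT4.13 had the lowest log2 difference of the 3 genes. Its scaled intensity was 22.2, 23.9 and 16.3 on mutant replicates 1, 4 and 5-2, which is close to the floor. On wild-type replicates 2, 5 and 6 it was 303, 444 and 207. The mutant arrays lay close together and far from wild type, with the lowest wild-type array 8.65-fold above the highest mutant array. The geometric mean in the mutant was 6.78% of that in wild type, a 14.7-fold difference (-3.88 ± 0.36 on the log2 scale, SE, n = 3 per group). Since the mutant arrays sat just above the floor, the size of this fold depended on it: with a floor of 32 the fold was 9.47.

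The probe set of scpl29 kept the most signal in the mutant relative to wild type. Its scaled intensity was 1388, 1018 and 1210 on mutant replicates 1, 4 and 5-2. On wild-type replicates 2, 5 and 6 it was 3069, 2774 and 3015. Both groups were tight, and the lowest wild-type array was 2.00-fold above the highest mutant array. The geometric mean in the mutant was 40.5% of that in wild type, a 2.47-fold difference (log2 difference -1.30 ± 0.14, SE, n = 3 per group).

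**Figure D1:**
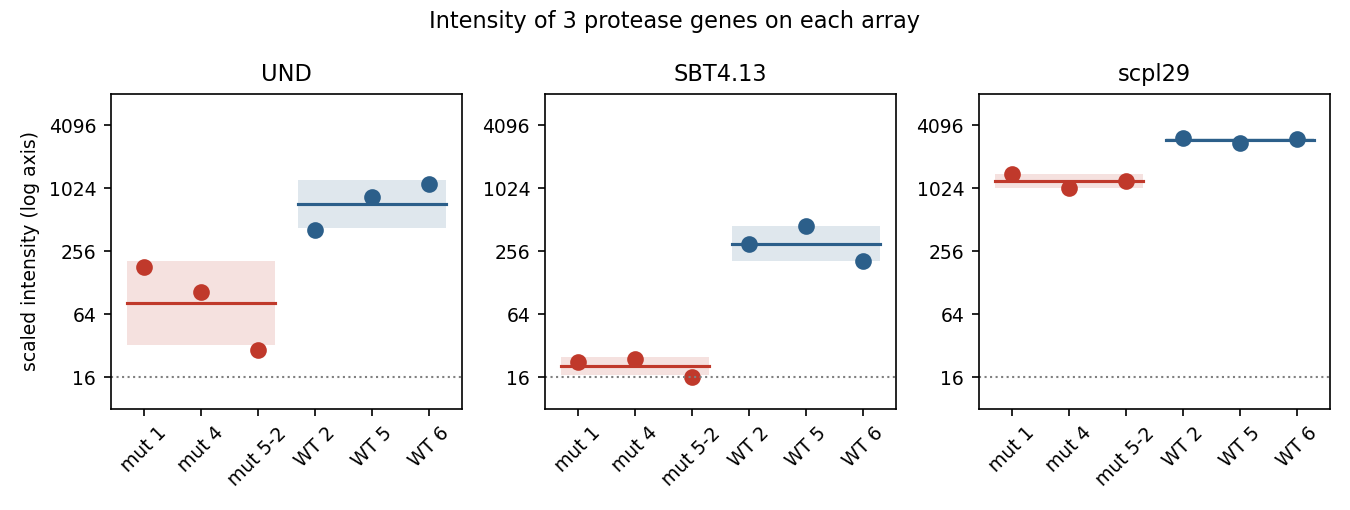
Scaled intensity of UND, SBT4.13 and scpl29 (vertical log axis) on each of the 6 arrays (red, mutant; blue, wild type). Lines are geometric means, shading is 1 SD on the log2 scale, and the dotted line is the floor of 16. In each gene the 3 mutant points lie below the 3 wild-type points, with the widest spread within a group in UND.

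The 3 genes differed in how far the replicates of a group stood apart. Among the mutant arrays the highest value was 6.12-fold above the lowest for UND, against 1.47-fold for SBT4.13 and 1.36-fold for scpl29. Among the wild-type arrays the same ratio was 2.77 for UND, 2.15 for SBT4.13 and 1.11 for scpl29. Thus scpl29, with the smallest fold, had the smallest spread, and UND the largest. The order of the arrays also differed. In wild type UND was highest on replicate 6, SBT4.13 on replicate 5 and scpl29 on replicate 2. In the mutant UND and scpl29 were highest on replicate 1 and SBT4.13 on replicate 4. The mutant values of SBT4.13 were close to the floor, so their spread and order say little.

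To set these differences among all transcripts, a model was fitted with limma over the 15164 probe sets that remained after the dimmest 1 in 3, by the mean over all arrays, were left out. A probe set was called at a Benjamini-Hochberg adjusted p under 0.05, and the words fell and rose refer to these calls. All 3 genes remained after that filter and all 3 were called lower, where 1.60% of the probe sets tested were called lower. All 3 also had groups that did not overlap, with the mutant lower, where this held for 8.90% of the probe sets tested. Nothing is read from these counts, because the genes were chosen from this comparison, and SBT4.13 remained after the filter through its wild-type arrays. Among the 15164 differences, 30 were lower than that of SBT4.13, 81 lower than that of UND and 563 lower than that of scpl29. The median difference of all probe sets tested was 0.04 on the log2 scale.

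The calls of the 3 genes are thus a description, and some were lost in other settings. With no filter on dim probe sets none of the 3 was called. In that fit limma called 3 probe sets in all, 0.0132% of 22746, while 1038 were higher and 1275 lower at unadjusted p under 0.05. The call of UND was lost without mutant replicate 5-2 and without each wild-type replicate in turn, and that of scpl29 without any 1 of the 6 arrays. Both were also lost on the values as deposited, after quantile normalization and with no floor beyond 1. Of 14 other settings UND was called in 6, scpl29 in 4 and SBT4.13 in 13.

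The other protease genes were then taken by family, from lists of locus codes and of patterns on gene symbols and synonyms. The annotation used gives many genes no symbol or description, so genes of these families can be missing from the lists, and each count and range below covers the listed genes only. The 5 family lists held 51 genes with a probe set of their own, of which 34 remained after the filter and 31 were genes other than UND, SBT4.13 and scpl29. Of these 31, limma called 1 lower and 0 higher, where 2.05% of all probe sets tested were called in either direction and 0.448% were called higher. At unadjusted p under 0.05 there were 6 of the 31, against 12.3% of all probe sets tested. The mutant arrays all lay below the wild-type arrays in 4 of the 31 and above them in 2, where this held for 8.90% and 8.38% of all probe sets tested. Of the genes so counted, AT5G36260, AT1G62290, scpl30 and scpl47 remained after the filter only through their wild-type arrays. Nothing is therefore read from these counts.

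Among the aspartic proteases, 8 of 14 listed genes had a probe set and all 8 were tested. Besides UND, which was chosen from this comparison, AT5G36260 fell and 6 did not pass. AT5G36260 is listed here by its locus code, since the annotation used gives it no description. It was at 70.4, 144.6 and 73.7 on wild-type replicates 2, 5 and 6 and below the floor on all 3 mutant arrays, so it was at least 5.68-fold lower (limma adjusted p = 0.00953, n = 3 per group). This bound is set by the floor, and with a floor of 32 it was at least 2.84-fold. The floor also makes the spread of the mutant arrays 0, so the p rests on the spread of the wild-type arrays and of other probe sets. AT5G36260 remained after the filter on dim probe sets only through its wild-type arrays. It passed in 10 of the 12 other settings in which it was tested, with adjusted p from 0.00479 to 0.133, and missed without the filter and without mutant replicate 5-2. With no floor beyond 1, and with the dimmest 1 in 2 left out, it was among the dim probe sets left out. AT1G62290, named here after its values were seen, was at 49.5, 14.2 and 44.7 on the mutant arrays and at 153.2, 111.9 and 96.5 on the wild-type arrays. Its groups did not overlap, and it did not pass (log2 difference -1.85 ± 0.56, limma adjusted p = 0.07). AT1G62290 too remained after the filter only through its wild-type arrays. The other 5 aspartic protease genes had differences between -0.63 and 0.49. They include APA1, a vacuolar enzyme of the family named after its values were seen, at 3082, 2387 and 3920 on the mutant arrays and 3349, 3955 and 2836 on the wild-type arrays (log2 difference -0.13 ± 0.25, limma adjusted p = 0.927). The median difference of the 8 was -0.38, where that of all probe sets tested was 0.04. The 8 include UND, which was chosen with its low value known, so nothing is read from this gap.

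Among the subtilases, 8 of 17 listed genes had a probe set and 6 were tested. Besides SBT4.13, which was chosen from this comparison, 5 did not pass. Of these 5 listed genes the lowest was SBT5.4, at -0.40 ± 0.15 on the log2 scale, and the highest was SBT3.12, at 0.59 ± 0.28 (limma adjusted p = 0.621 and 0.486). This range may be too narrow for the family. AT1G20150 and AT5G59130, which appear below, have no description in the annotation used, and whether they are subtilases was not determined. They differed by -3.37 ± 0.97 and 1.34 ± 0.47. AT1G20150 was called lower and AT5G59130 was not called, and both are named here with their values known. ARA12, a subtilase known for the release of seed coat mucilage, differed by 0.25 ± 0.09 (limma adjusted p = 0.784). SBT4.12, of the same subfamily as SBT4.13, was too dim to be tested after the filter. It was at 41.4, 11.5 and 27.5 on the mutant arrays and at 5.3, 34.4 and 7.2 on the wild-type arrays, which overlapped and straddled the floor. The median difference of the 6 tested, with the chosen SBT4.13 among them, was -0.06. SBT5.4, SBT3.12, ARA12 and SBT4.12 were named after their values were seen.

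Among the serine carboxypeptidase-like genes, 29 of 51 listed genes had a probe set and 17 were tested. Besides scpl29, which was chosen from this comparison, 16 did not pass. Differences larger in size than that of scpl29 were seen for scpl47, at -1.92 ± 0.92, and scpl30, at -1.66 ± 0.56, but both varied more between arrays (limma adjusted p = 0.224 and 0.106). The arrays of scpl47 overlapped between the groups and those of scpl30 did not. Both genes remained after the filter only through their wild-type arrays. SCPL34 was the highest of the family at 1.06 ± 0.53 (limma adjusted p = 0.332). The difference was -0.24 ± 0.20 for scpl25 and 0.25 ± 0.60 for SCPL49, both bright in each group (limma adjusted p = 0.825 and 0.906). The median difference of the 17 tested, with the chosen scpl29 among them, was 0.14, near the 0.04 of all probe sets tested. All of these but scpl29 were named after their values were seen.

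The cysteine protease and metacaspase list had 5 of 24 genes with a probe set and 3 tested, and 0 were called by limma, with 0 at unadjusted p under 0.05. Over all probe sets tested these shares were 2.05% and 12.3%. BETA-VPE, a legumain-type processing enzyme of the vacuole, had the smallest p, with 144.7, 179.4 and 314.9 on the mutant arrays and 117.6, 152.6 and 119.7 on the wild-type arrays. Its groups overlapped (log2 difference 0.64 ± 0.36, limma adjusted p = 0.503). CP1, a papain-type cysteine protease, differed by 0.31 ± 0.38 (limma adjusted p = 0.819). CEP1, the papain-type protease of tapetal cell death, was not analysed here. The 1 metalloprotease gene with a probe set, MMP, was left out by the filter. Of 12 listed protease inhibitor genes, 2 were tested, with 0 called by limma and 0 at unadjusted p under 0.05: the cystatin CYS1, which blocks papain-type proteases, differed by -0.13 ± 0.45, and SERPIN1 by -0.40 ± 0.43 (limma adjusted p = 0.945 and 0.758).

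**Figure D2:**
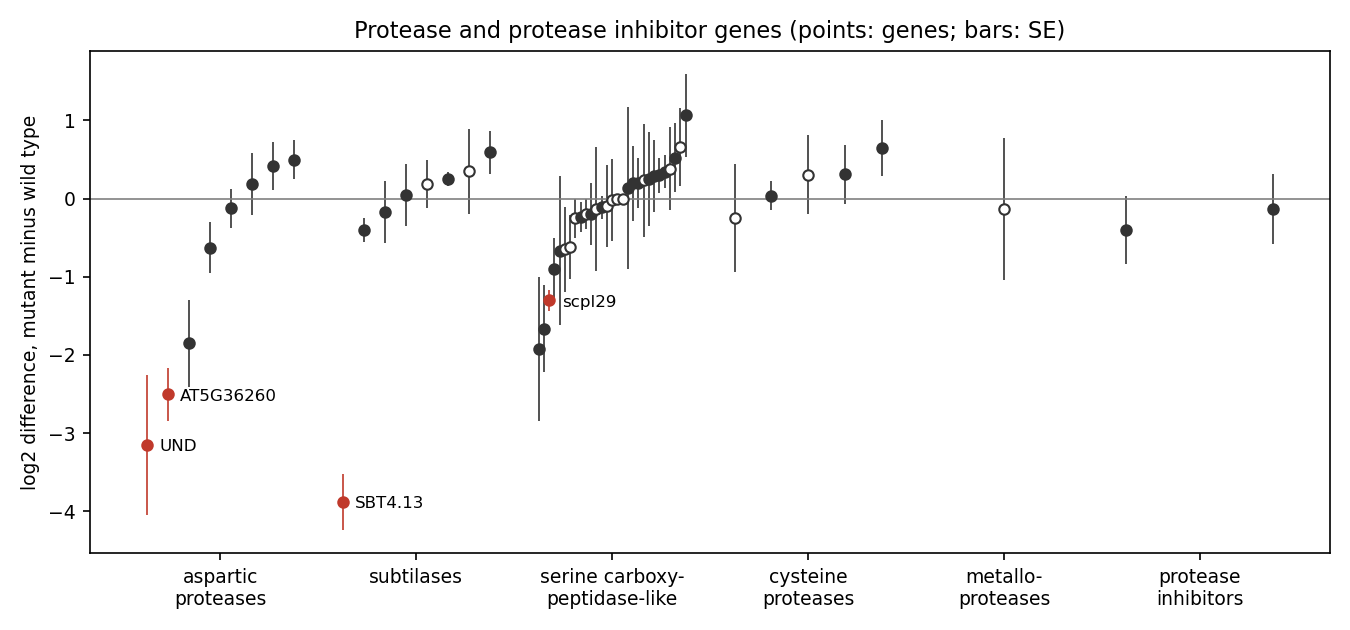
Log2 difference, mutant minus wild type, of each listed protease and protease inhibitor gene with a probe set of its own. Points are genes with their SE over 3 arrays per group, red points were called lower, and open points were left out by the filter on dim probe sets. UND, AT5G36260, SBT4.13 and scpl29 are the 4 called genes, of which all but AT5G36260 were chosen from this comparison.

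UND also belongs to a list of genes that accompany developmental cell death in plants. Of its 12 genes 6 had a probe set, all 6 were tested and 5 did not pass besides UND. The median difference of the 6 was -0.45, and it includes UND, which was chosen from this comparison. AT4G04460, which is on the aspartic protease list as well, was at 4275, 5381 and 9577 on the mutant arrays and 6686, 5452 and 4124 on the wild-type arrays (log2 difference 0.18 ± 0.40, limma adjusted p = 0.911). The carboxypeptidase gene scpl48 was at 2405, 1876 and 4318 on the mutant arrays and 6176, 4083 and 4985 on the wild-type arrays (log2 difference -0.90 ± 0.40, limma adjusted p = 0.327). Both genes overlapped between the groups. AT4G18425 had a difference of -0.57 ± 0.45 and AT2G14095 one of -0.33 ± 0.82 (limma adjusted p = 0.628 and 0.901). These 4 genes were named after their values were seen.

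The genes next to the 3 on the chromosome were looked up by gene order. Within 4 protein-coding genes on either side, 14 neighbours had a probe set and 9 were tested. Limma called 0 of the 9, and 1 had an unadjusted p under 0.05, where these shares were 2.05% and 12.3% of all probe sets tested. Of the 14, 2 had groups that did not overlap, AT5G59130 and AT5G59100, both higher in the mutant. Over all probe sets tested this held for 8.90% with the mutant lower and 8.38% with it higher. AT5G59100, too dim to be tested and named after its values were seen, differed by 0.75 ± 0.27. scpl20, a carboxypeptidase-like gene directly before UND, was at 86.0, 107.7 and 87.7 on the mutant arrays and 66.2, 108.3 and 38.4 on the wild-type arrays (log2 difference 0.52 ± 0.44, limma adjusted p = 0.667). AT4G12930, directly after UND, differed by 0.11 ± 0.17 (limma adjusted p = 0.933). AT5G59130, directly after SBT4.13, was higher on all 3 mutant arrays, at 169.7, 83.1 and 239.4 against 69.8, 53.5 and 55.5 in wild type, and did not pass (log2 difference 1.34 ± 0.47, limma adjusted p = 0.14). The genes beside scpl29, AT4G30800 and AT4G30820, differed by 0.27 ± 0.28 and -0.07 ± 0.14 (limma adjusted p = 0.819 and 0.959). These neighbours were examined after the values of the 3 genes were known.

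**Figure D3:**
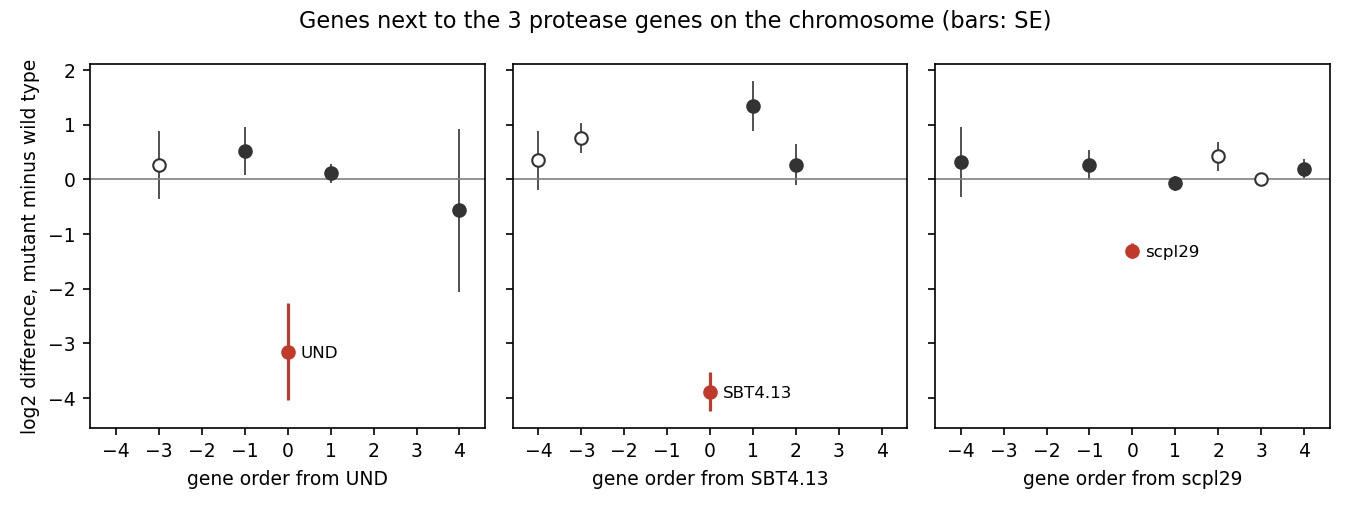
Log2 difference, mutant minus wild type, with SE over 3 arrays per group, against the order of protein-coding genes around UND, SBT4.13 and scpl29 (red, at 0). Open points were left out by the filter, and genes without a probe set of their own are not drawn. Of 14 neighbours, 12 lie at or above 0 and 2 below. AT4G30830 is at 0 because all 6 arrays are at the floor. The median of all probe sets tested was 0.04, and nothing is read from this count.

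Genes with the most similar profile were found among 8392 probe sets with 1 gene, by the root mean square distance of log2 values from each gene's own wild-type mean, over the 6 arrays of the 2 genotypes. Nearest to UND were AT1G20150 (distance 0.42), AT5G17200, AT5G50120, AT1G34640 and AT1G66460 (0.70). AT1G20150 was at 338, 89.6 and 35.5 on mutant replicates 1, 4 and 5-2 and at 783, 1194 and 1279 on wild-type replicates 2, 5 and 6. It thus had the same order of arrays as UND in both groups. Nearest to SBT4.13 were AT1G20135 (0.47), AT5G64790, AT5G27980, AT4G02250 and AT5G42170 (0.62). Of these, AT1G20135 was at 13.3, 37.7 and 22.4 on the mutant arrays and at 323, 309 and 279 on the wild-type arrays. Nearest to scpl29 were AT5G51830 (0.14), SDT, AT1G09680, AT1G75170 and UGT78D2 (0.22). SDT, a spermidine disinapoyl acyltransferase, was at 304, 267 and 274 on the mutant arrays and at 690, 554 and 611 on the wild-type arrays. UGT78D2, a glucosyltransferase of flavonols and anthocyanins, was at 206, 163 and 192 on the mutant arrays and at 452, 499 and 657 on the wild-type arrays. No gene was among the nearest 5 of more than 1 of the 3. These likenesses are a description of 6 arrays that share their scaling and genotype groups.

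Markers of 2 kinds of anther cell were set beside these genes. Of 12 listed markers of microspores and pollen, 6 had a probe set, all 6 were tested and 2 fell, ACT12 and AGL104 (log2 difference -2.70 ± 0.67 and -2.21 ± 0.35, limma adjusted p = 0.0328 and 0.0171), where 1.60% of all probe sets tested were called lower. Of 14 other settings ACT12 passed in 6 (adjusted p from 0.00197 to 0.271) and AGL104 in 10 (from 0.00369 to 0.172). ACT12 and AGL65 remained after the filter on dim probe sets through their wild-type arrays. All 6 markers had an unadjusted p under 0.05 in limma, and in 5 the mutant arrays all lay below the wild-type arrays. Over all probe sets tested these shares were 12.3% and 8.90%. The list was chosen with earlier results of these data known, so nothing is read from these counts. The median difference of the 6 was -2.32. Their summed scaled intensity ran from 268 to 1807 on the mutant arrays and from 3875 to 6009 on the wild-type arrays. Most of that sum came from AT5G45880, which was not called, and without it the sum of the other 5 ran from 150.4 to 381 and from 615.9 to 1022. ACT12, MGH3 and AGL65 were each at the floor on 1 mutant array, and none of the 6 was at the floor on a wild-type array. MGH3, AGL65, AT5G45880 and, below, ATA27 are named here with their values already known. Of 11 listed tapetum markers 3 had a probe set, which included AMS, a regulator of tapetum development. Limma called 0 of the 3, with 2 at unadjusted p under 0.05, where 2.05% and 12.3% of all probe sets tested were so. AMS and AT5G07230 differed by 1.28 ± 0.44 and 1.28 ± 0.61 on the log2 scale (limma adjusted p = 0.148 and 0.273), and ATA27, a glucosidase gene, by -0.69 ± 0.36 (adjusted p = 0.463). The sum of the 3 ran from 9853 to 24310 in the mutant and from 9293 to 14290 in wild type, and none of the 3 was at the floor on any array. In whole anthers, fewer cells of a type and less RNA per cell cannot be told apart. The part of these marker levels in the differences of UND, SBT4.13 and scpl29 was not tested.

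The genes and the marker lists were also compared array by array. As offsets from the wild-type mean on the log2 scale, UND was at -2.02, -2.81 and -4.63 on mutant replicates 1, 4 and 5-2. The median of the 6 microspore and pollen markers was at -2.43, -1.44 and -2.80. SBT4.13 was at -3.77, -3.66 and -4.22, and scpl29 at -1.09, -1.54 and -1.29. Mutant replicate 4 was thus the least lowered array for the pollen median and for SBT4.13, and replicate 1 for UND and scpl29. Replicate 5-2 was the most lowered for the pollen median, SBT4.13 and UND. SBT4.13 lay just above the floor on all 3 mutant arrays, with almost the same value on replicates 1 and 4. Some pollen markers were at the floor on a mutant array. The order of the mutant arrays is therefore not read as a likeness between SBT4.13 and the pollen markers. The median of the 3 tapetum markers was at 1.30, 0.39 and 1.97 on the same arrays, so it was above the wild-type mean on every mutant array. On wild-type replicates 2, 5 and 6 it was at 0.32, -0.10 and 0.06, so mutant replicate 4 lay little above wild-type replicate 2. UND, SBT4.13 and scpl29 were below their own wild-type means on every mutant array. The tapetum markers did not move together. ATA27 was at 3095, 3830 and 6483 on the mutant arrays, each below its wild-type geometric mean of 6847. It was at 8525, 6369 and 5913 on the wild-type arrays, so its groups overlapped, as did those of AT5G07230. The groups of AMS did not overlap, with the mutant higher, where this held for 8.38% of all probe sets tested. None of the 3 markers was called.

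**Figure D4:**
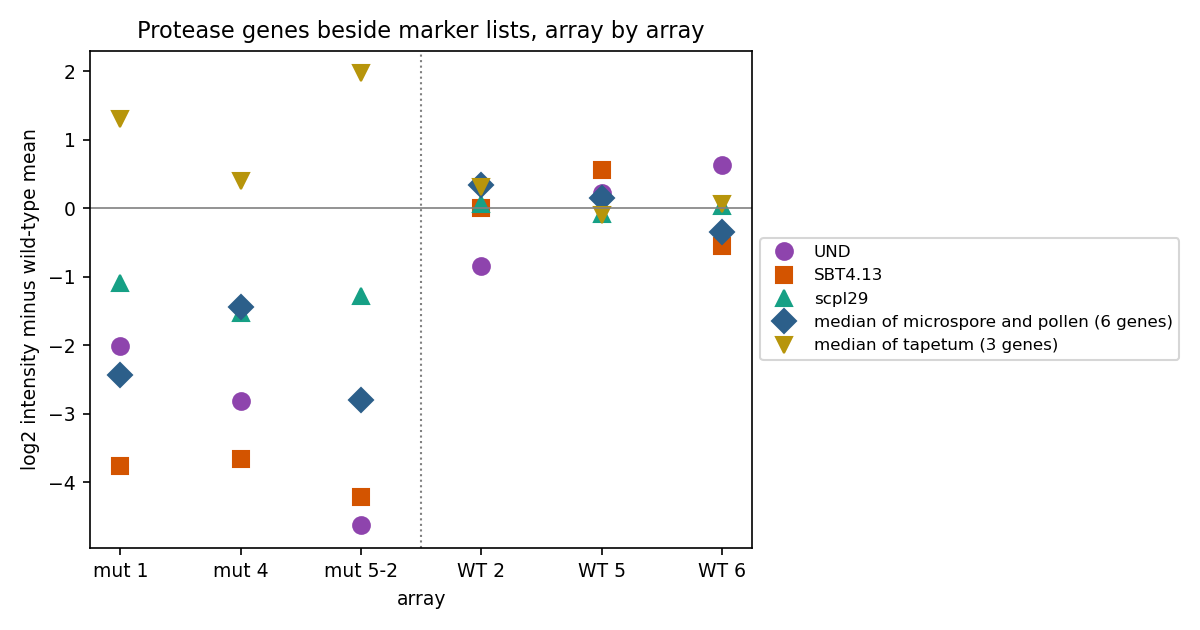
Log2 intensity minus the wild-type mean (vertical axis) on each array, for UND, SBT4.13 and scpl29 and for the medians of 6 microspore and pollen markers and 3 tapetum markers. On the mutant arrays the 3 genes and the pollen median lie below 0 and the tapetum median above it. The tapetum marker ATA27, not drawn by itself, was below its wild-type mean on these arrays, though its groups overlapped. UND, SBT4.13 and the pollen median are lowest on mutant replicate 5-2, but SBT4.13 lies just above the floor on every mutant array.

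Few markers were measurable for meiotic cells, which belong to these anther stages, and for other tissues that dissection could carry over. Of 12 meiosis genes 4 had a probe set and 2 were tested, with 0 called by limma and 1 at unadjusted p under 0.05, ATMND1 (log2 difference 0.65 ± 0.22, limma adjusted p = 0.386). ZYP1b differed by -0.18 ± 0.50 (adjusted p = 0.923). Of 10 markers of green tissue, sepals, petals and carpels, 4 were tested, with 0 called by limma and 1 at unadjusted p under 0.05. Over all probe sets tested these shares were 2.05% and 12.3%, and with so few markers nothing is read from either list. LHCB4.1, a light-harvesting protein of photosystem II, was 0.86 ± 0.34 higher on the log2 scale, and RCA, the activase of Rubisco, 0.58 ± 0.27 (adjusted p = 0.311 and 0.502). MYB80 itself had no probe set of its own in the table used here and was not analysed here, so the labels were not checked on the mutated gene.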

How the data were processed

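The data are 1 intensity for each of 22810 probe sets on 6 Affymetrix arrays of anther RNA, 3 per genotype, with biotin-labelled cRNA per the labels. The deposited intensity values are linear and have the same mean, 150.01, on every array once the top and bottom 2% are set aside. The software that made them was not given in the sources used here. The 64 control probe sets were left out. Array medians differed by 0.323 on the log2 scale, so arrays were brought to a common median by factors of 0.897 to 1.12. Values under 16 were set to 16, and log2 was taken. Differences were fitted with limma 3.58.1 in R 4.3.3 (lmFit and eBayes, two-sided, Benjamini-Hochberg) over 15164 probe sets, and the script was tested on simulated data. SEs are from the SDs of the 2 groups. The number of arrays limits the precision.

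Probe sets were named through the platform annotation and NCBI RefSeq's gene table for TAIR10.1, which matched 13436 of the 13513 with 1 gene. The 503 with several genes were not used for names, and 8730 are unnamed here. Family lists came from locus codes and patterns on symbols and synonyms, with 1 probe set per gene, the brightest over all arrays. The members and lists were chosen with earlier results of these data known. Genes were named by a rule: the 3 genes; MYB80; per list up to 4 called members in each direction (2 for cell markers) or, with none called, the 2 smallest unadjusted p; and the 5 nearest profiles. Others are said to have been named after their values were seen. The alternatives were the values as deposited, quantile normalization, other filters and floors, a mean-variance trend, array weights (statmod 1.5.0), a threshold of 0.1 and leaving out each array.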

Additional observations from a re-analysis of the deposited data

How the results depend on the processing

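UND, SBT4.13 and scpl29 were lower in the mutant under every scaling, floor and left-out array tried. Leaving out 1 array at a time, the log2 difference ran from -3.72 to -2.41 for UND, from -4.16 to -3.61 for SBT4.13 and from -1.41 to -1.19 for scpl29. With a floor of 32 that of SBT4.13 was -3.24, and after quantile normalization that of scpl29 was -1.12. The count of called probe sets, 311, was 141 on the values as deposited, 198 after quantile normalization, 3 without the filter, 532 with a floor of 32, 70 with no floor beyond 1, 527 with a mean-variance trend, 650 with array weights and 541 at adjusted p under 0.1. Leaving out 1 array gave 43 to 535. On the values as deposited, calls were 1 aspartic protease, 0 carboxypeptidase-like and 0 cell death genes and 1 pollen marker. After quantile normalization they were 1, 0 and 0 for the first 3 of these. Without the filter all of these lists and the subtilases had 0. With no floor beyond 1 they had 0, 0 and 0, and 1 pollen marker. With the dimmest 1 in 2 left out 1 aspartic protease was called, and 3 were called with a floor of 32 and with a mean-variance trend. Pollen markers had 4 calls with a floor of 32, with a trend and with array weights, and the tapetum list had 1 with array weights. Leaving out 1 array gave 0 to 2 aspartic proteases, 0 to 1 carboxypeptidase-like genes, 0 to 1 cell death genes, 0 to 4 pollen markers and 0 to 1 tapetum markers. The causes of these shifts were not tested, apart from fewer arrays or a different number of probe sets where the alternative sets that. No paired analysis was possible because the replicate names of the groups share fewer than 2 numbers.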
